A study of Mus musculus with 2 samples.

Results

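The 6 Dlx genes (Dlx1 to Dlx6) were followed through 2 single-cell libraries of the developing mouse mandible. The members were taken by gene symbol, and all 6 have a row in both libraries, among 31053 genes listed at E9.5 and 27998 at E12.0 (27514 genes in common). The E9.5 library holds whole mandibular arches, epithelium and mesenchyme together, dissociated without sorting. The E12.0 library holds mandibular epithelium that was peeled from the mesenchyme and sorted for GFP. The embryos of both stages are labelled K14Cre;R26mT/mG with no treatment: Cre driven by the keratin 14 promoter switches a membrane reporter from tdTomato to GFP in epithelial cells, so the E12.0 sort keeps cells in which that promoter has been active. Each library is 1 pool of littermate embryos, and there is no replicate library at either stage.

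Dlx genes encode homeodomain transcription factors related to Distal-less, the gene that directs limb outgrowth in the fly. In the mouse they lie as neighbouring pairs facing each other, and the members of a pair share enhancers. In the pharyngeal arches, cranial neural crest cells express the pairs in a nested arrangement along the proximal to distal axis: Dlx1 and Dlx2 along the whole arch, Dlx5 and Dlx6 in its lower part, and Dlx3 and Dlx4 nearest the tip. The signal endothelin 1, made by the epithelium and the mesodermal core, acts through its receptor Ednra on the crest-derived mesenchyme and keeps Dlx5 and Dlx6 on. Dlx5 and Dlx6 in turn act on Hand2, a factor of the distal arch, and loss of both turns the lower jaw into an upper jaw. In the epithelium, Dlx genes are known from tooth placodes, skin and its appendages.

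All 6 genes have the same build. In the Ensembl and GENCODE annotation of GRCm38, Dlx1 (ENSMUSG00000041911) lies on chromosome 2 from 71528113 to 71533981 on the plus strand, and Dlx2 (ENSMUSG00000023391) from 71543408 to 71546754 on the minus strand. Dlx6 (ENSMUSG00000029754) lies on chromosome 6 from 6863334 to 6868568 on the plus strand, and Dlx5 (ENSMUSG00000029755) from 6877805 to 6882085 on the minus strand. Dlx3 (ENSMUSG00000001510) lies on chromosome 11 from 95120119 to 95125296 on the plus strand, and Dlx4 (ENSMUSG00000020871) from 95140447 to 95146263 on the minus strand. The 2 genes of a pair point towards each other across 9426 bp (Dlx1 and Dlx2), 15150 bp (Dlx3 and Dlx4) and 9236 bp (Dlx5 and Dlx6). The homeobox is 180 bases long in each gene and is split over 2 exons, with 132 bases in exon 2 and 48 bases in exon 3 in all 6.

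The end of the homeobox, bases 121 to 180, encodes the recognition helix that contacts DNA and is shown to let the pairs be compared letter by letter. The sequences were read from the GENCODE transcripts of GRCm38, 5′ to 3′ on the coding strand, and capitals mark the 6 codons around the core of that helix.
Dlx1: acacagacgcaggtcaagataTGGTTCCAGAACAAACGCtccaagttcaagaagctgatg
Dlx2: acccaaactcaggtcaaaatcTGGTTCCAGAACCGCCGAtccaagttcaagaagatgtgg
Dlx3: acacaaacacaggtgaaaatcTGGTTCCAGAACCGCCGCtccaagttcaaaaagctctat
Dlx4: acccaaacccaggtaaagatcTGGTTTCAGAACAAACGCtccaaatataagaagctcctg
Dlx5: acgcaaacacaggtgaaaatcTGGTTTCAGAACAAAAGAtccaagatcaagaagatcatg
Dlx6: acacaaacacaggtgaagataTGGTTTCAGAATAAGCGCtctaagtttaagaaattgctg

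Over the whole homeobox, identity ran from 66.1% of bases (Dlx3 and Dlx6) to 81.7% (Dlx2 and Dlx3). The neighbouring pairs were not the most alike: identity was 73.9% for Dlx1 and Dlx2, 71.7% for Dlx3 and Dlx4, and 73.3% for Dlx5 and Dlx6. In the last 500 bases of the transcripts, the part that a 3′ library reads, no 2 members shared a run longer than 18 bases. UMIs, the tags that count each captured transcript once, are the unit of all values here. Levels are given as CPM, the UMIs of a gene summed over the cells of a group per 1000000 UMIs of that group. Capture at the 3′ end can differ between genes, so a difference in CPM between members is not read as a difference in transcript number.

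After the study's filter (200 to 5500 genes and at most 10% mitochondrial UMIs), 12744 of 14293 barcodes remained at E9.5 with a median of 13460.5 UMIs, and 11355 of 11663 at E12.0 with a median of 6349. Of the barcodes, 51 occur in both libraries. Intervals in parentheses are 95% intervals for counting error only, since no spread between embryos can be had from 1 library per stage, and no difference below has a test. A gene is called higher or lower where its CPM differed by at least 1.5-fold with 5 CPM added to both sides and reached 10 CPM in either group. Mesenchyme was gated at E9.5 as cells with at least 2 UMIs of Twist1 and Prrx1 together and none of Epcam (5829 cells), and the summed CPM of its check list (Pdgfra, Col3a1, Dcn, Alx1 and Snai1, all 5 detected) was 167 there, 17.7 in ectoderm and 23.0 in endothelial cells.

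In E9.5 mesenchyme Dlx1, Dlx2, Dlx5 and Dlx6 had most of the Dlx UMIs, and Dlx3 and Dlx4 had fewer. Dlx1 was at 46.7 CPM (45.3 to 48.2) and had a UMI in 42.1% of mesenchymal cells. Dlx2 was at 55.5 CPM (53.9 to 57.1) with a UMI in 49.0% of cells. The lower-arch genes were at 90.6 CPM (88.5 to 92.6) for Dlx5, in 47.98% of cells, and at 51.9 CPM (50.4 to 53.4) for Dlx6, in 38.1% of cells. Dlx3 was at 7.56 CPM (6.99 to 8.17), in 9.25% of cells, and Dlx4 at 0.513 CPM (0.373 to 0.689), from 44 UMIs in all. With every cell thinned to 4100 UMIs, so that depth was equal, the shares of mesenchymal cells with a UMI were 16.4% for Dlx1, 19.4% for Dlx2, 2.98% for Dlx3, 0.226% for Dlx4, 25.9% for Dlx5 and 17.1% for Dlx6. Endothelial cells (238 cells gated on Cdh5 and Pecam1), which should lack these genes, had 3.46, 4.03, 0.576, 0, 8.35 and 7.20 CPM of Dlx1 to Dlx6 in that order, at a median depth of 14141 UMIs against 15244 in mesenchyme.

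**Figure D1:**
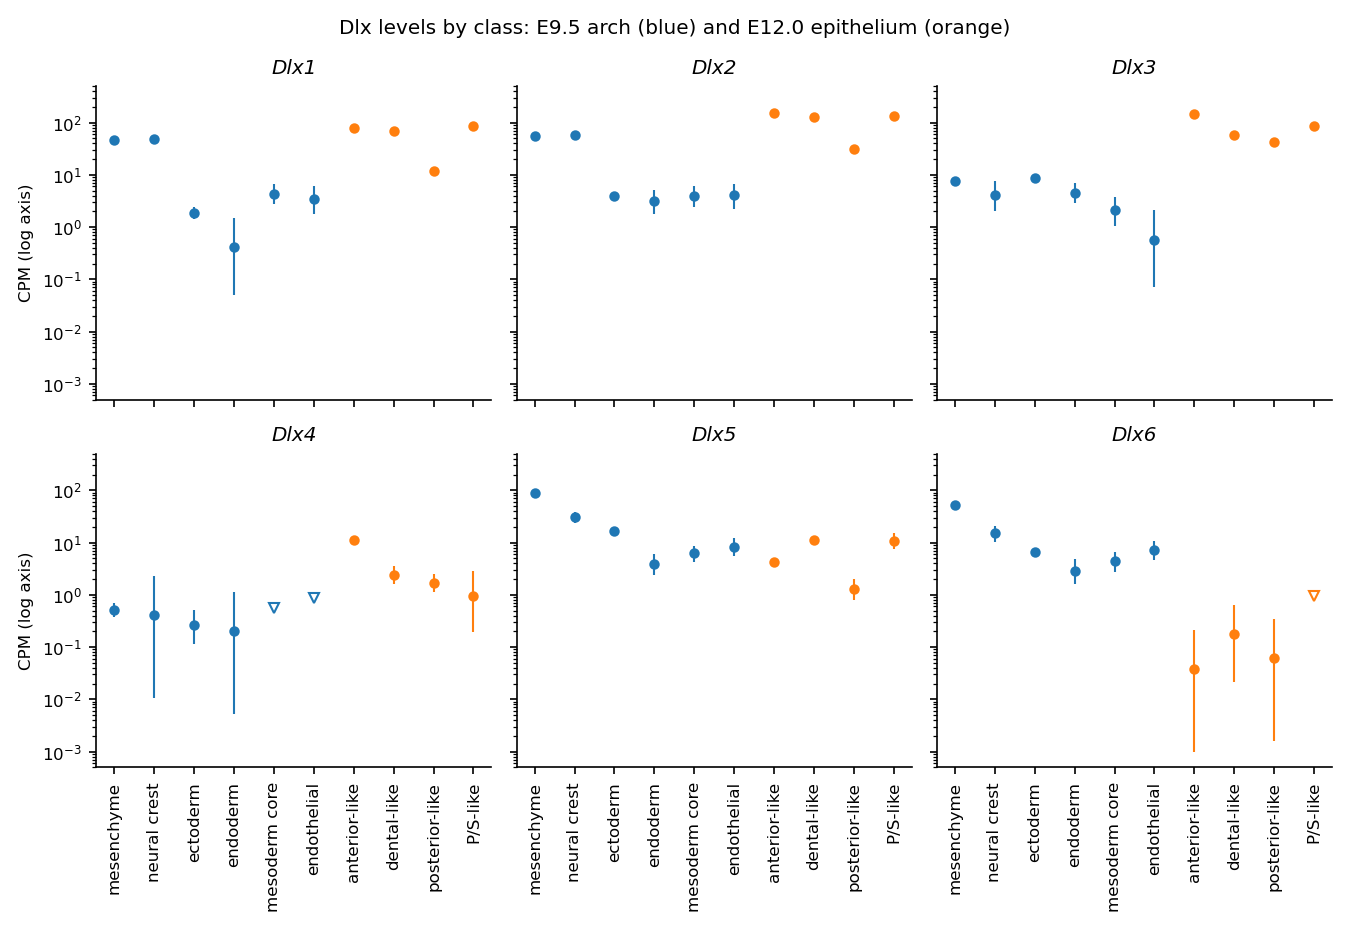
CPM of each Dlx gene (log axis) in 6 cell classes of the E9.5 arch (blue) and 4 zones of the E12.0 epithelium (orange), with 95% counting intervals; open triangles mark the upper limit where no UMI was found. Dlx1, Dlx2, Dlx5 and Dlx6 peak in mesenchyme or neural crest at E9.5, Dlx1, Dlx2 and Dlx3 lie between 79.5 and 155 CPM in the anterior-like zone at E12.0, and Dlx6 has at most 2 UMIs in any E12.0 zone.

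To ask how the members are placed along the arch, mesenchymal cells were divided by Hand2, which marks the distal part and was not used otherwise: 464 cells had at least 2 Hand2 UMIs (Hand2-high), 465 had 1, and 4900 had none (Hand2-zero). Dlx3, a member of the arch tip, was called higher in Hand2-high cells: it was at 14.1 CPM (11.5 to 17.0) in Hand2-high cells against 5.88 CPM (5.33 to 6.48) in Hand2-zero cells, a log2 ratio of 1.26 (0.93 to 1.57). Dlx5 was at 115 CPM (108 to 123) against 83.6 CPM (81.5 to 85.7), a log2 ratio of 0.46 (0.36 to 0.56), and Dlx6 at 70.7 CPM (64.8 to 77.0) against 46.3 CPM (44.7 to 47.9), a log2 ratio of 0.61 (0.48 to 0.74). The pair of the whole arch was lower in these cells. Dlx1 was at 33.7 CPM (29.7 to 38.2) against 48.3 CPM (46.7 to 49.97), a log2 ratio of -0.52 (-0.71 to -0.33). Dlx2 was at 46.6 CPM (41.8 to 51.7) against 57.0 CPM (55.2 to 58.7), a log2 ratio of -0.29 (-0.45 to -0.13). Dlx4 had 10 UMIs in Hand2-high cells (1.34 CPM, 0.642 to 2.46) and 29 in Hand2-zero cells (0.410 CPM, 0.275 to 0.589), too few to be called. By the size rule 1 of the 6 genes was called higher (Dlx3) and none lower, where 4.47% of 7812 genes that reached 10 CPM were called higher and 0.998% lower. The counting intervals of the other 4 genes above 10 CPM exclude equal levels, so their differences are smaller than the size rule asks and larger than counting error.

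The Hand2-high cells were not all alike, and this touches every value in the comparison. The epithelial check list (Cdh1, Krt8, Krt18, Cldn6 and Cldn7) summed to 324 CPM in Hand2-high cells, 117 CPM in cells with 1 Hand2 UMI and 52.1 CPM in Hand2-zero cells, against 1463 CPM in ectoderm. All 5 genes of that list were detected in each of these groups, although the gate requires that Epcam is absent. The Hox genes Hoxa2 and Hoxb2, which mark the second arch and are absent from the first, summed to 18.6 CPM in Hand2-high cells and 0.537 CPM in Hand2-zero cells. Of the 464 Hand2-high cells, 123 (26.5%) had at least 4 UMIs of the epithelial list, compared with 107 of the Hand2-zero cells (2.18%). Those 123 cells were led by Acta2 (684 CPM against 28.0 CPM in the other 341), Col1a1 (208 against 6.31), Tagln (392 against 22.9) and Hand1 (130 against 2.73), which encode contractile and matrix proteins and a heart and distal arch factor. Hoxb2 was detected in 64 of the 123 and in 12 of the 341. Called doublets made up 2.44% of the 123 and 11.2% of the 107. These cells are given no type name, since no marker list used here defines them.

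Dlx genes were low in those 123 cells. Dlx5 was at 14.9 CPM there and 143 CPM in the other 341 Hand2-high cells, a log2 ratio of -3.26 (-3.91 to -2.68). Dlx6 was at 6.82 against 88.2 CPM, Dlx3 at 0.620 against 17.8 CPM, Dlx1 at 4.96 against 41.6 CPM and Dlx2 at 4.34 against 58.2 CPM. In endothelial cells the corresponding values were 8.35, 7.20, 0.576, 3.46 and 4.03 CPM. The cells were set apart after their values were seen, by epithelial genes and not by Dlx genes.

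With cells of at least 4 epithelial-list UMIs left out of both groups, the differences of Dlx3, Dlx5 and Dlx6 widened. The filter acted unevenly, since it took out 26.5% of Hand2-high and 2.18% of Hand2-zero cells. The Hand2-high cells taken out were called lower than the rest of their group for 5 Dlx genes, the Hand2-zero cells for Dlx1 alone. Dlx3 was at 17.8 CPM in Hand2-high and 5.84 CPM in Hand2-zero cells, a log2 ratio of 1.60 (1.28 to 1.92). Dlx6 was at 88.2 against 46.5 CPM, a log2 ratio of 0.93 (0.79 to 1.06), and Dlx5 at 143 (133 to 153) against 84.0 CPM, a log2 ratio of 0.76 (0.66 to 0.87). Dlx2 was level, at 58.2 against 57.0 CPM with a log2 ratio of 0.03 (-0.13 to 0.19). Dlx1 was at 41.6 against 49.0 CPM, a log2 ratio of -0.24 (-0.43 to -0.05), and Dlx4 at 1.71 against 0.392 CPM. Dlx3, Dlx5 and Dlx6 were then called higher, 3 of 6 genes, where 1.53% of 7604 genes were called higher and 1.16% lower. Leaving out the cells with a UMI of Hand1 instead also gave these 3 calls. Of the 76 Hand2-high cells with a Hand1 UMI, 67 are among the 123, so this is not a separate check.

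**Figure D2:**
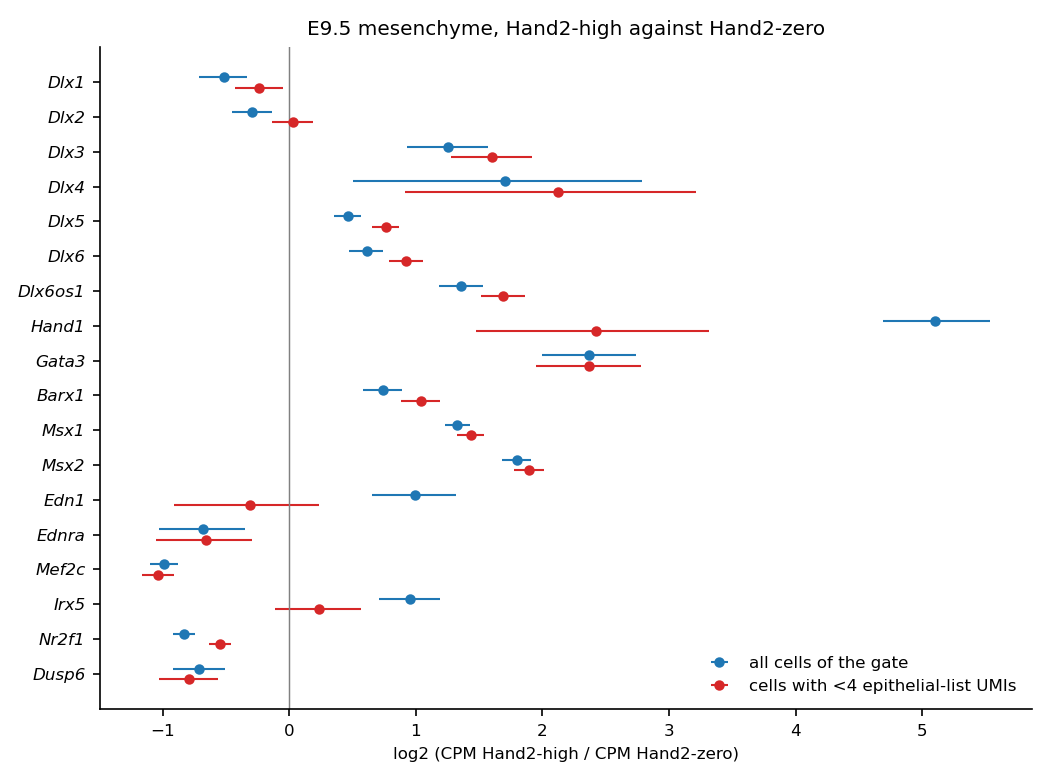
Log2 ratio of CPM in Hand2-high over Hand2-zero mesenchyme at E9.5 for the Dlx genes, Dlx6os1 and arch patterning genes, with 95% counting intervals, over all cells of the gate (blue) and over cells with fewer than 4 epithelial-list UMIs (red). Leaving those cells out moves Dlx5 from 0.46 to 0.76 and Dlx2 from -0.29 to 0.03, and brings Hand1, Edn1 and Irx5 down.

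The same dependence showed in finer steps of Hand2. Over all cells Dlx3 had no rise past the first step, with 16.9, 15.1, 13.2, 12.5 and 15.8 CPM from 1 Hand2 UMI upwards. Dlx5 was at 83.6 CPM in cells with no Hand2 UMI, 132 with 1, 128 with 2, 120 with 3, 99.5 with 4 or 5, and 86.0 with 6 or more (39 cells). Its level was therefore highest in the cells with 1 Hand2 UMI and lower at each further step. Hand1 was at 0.877, 9.31, 17.3, 26.4, 36.4 and 80.2 CPM over the same steps. In cells with fewer than 4 epithelial-list UMIs, Dlx5 stood at 84.0, 139, 144, 149, 133 and 144 CPM, a step up at the first Hand2 UMI and then a plateau. Dlx6 took the same shape there, with 46.5, 90.9, 88.6, 83.0, 87.3 and 107 CPM. Dlx3 went from 5.84 to 17.7, 16.9, 16.6, 17.9 and 27.4 CPM, the last step resting on 21 cells. Dlx2 stayed between 51.8 and 62.4 CPM throughout. Dlx1 was at 49.0, 46.6, 44.3, 44.3, 35.1 and 34.9 CPM. Only at 4 or 5 Hand2 UMIs did its interval (25.6 to 46.9) lie below that of cells with none (47.4 to 50.7). The last step (19.1 to 58.5) rests on 14 UMIs in 21 cells and overlapped it. In cells thinned to 4100 UMIs, so that depth was equal, 4920 cells had 0, 280 had 1 and 110 had at least 2 Hand2 UMIs. Dlx5 was then at 84.6, 118 and 71.0 CPM, Dlx6 at 48.6, 82.8 and 37.7 CPM, and Dlx3 at 7.14, 15.7 and 2.22 CPM, the last from 1 UMI (0.0561 to 12.4). Hand1 was at 53.2 CPM in the highest of these classes, which still holds the cells with epithelial-list UMIs.

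**Figure D3:**
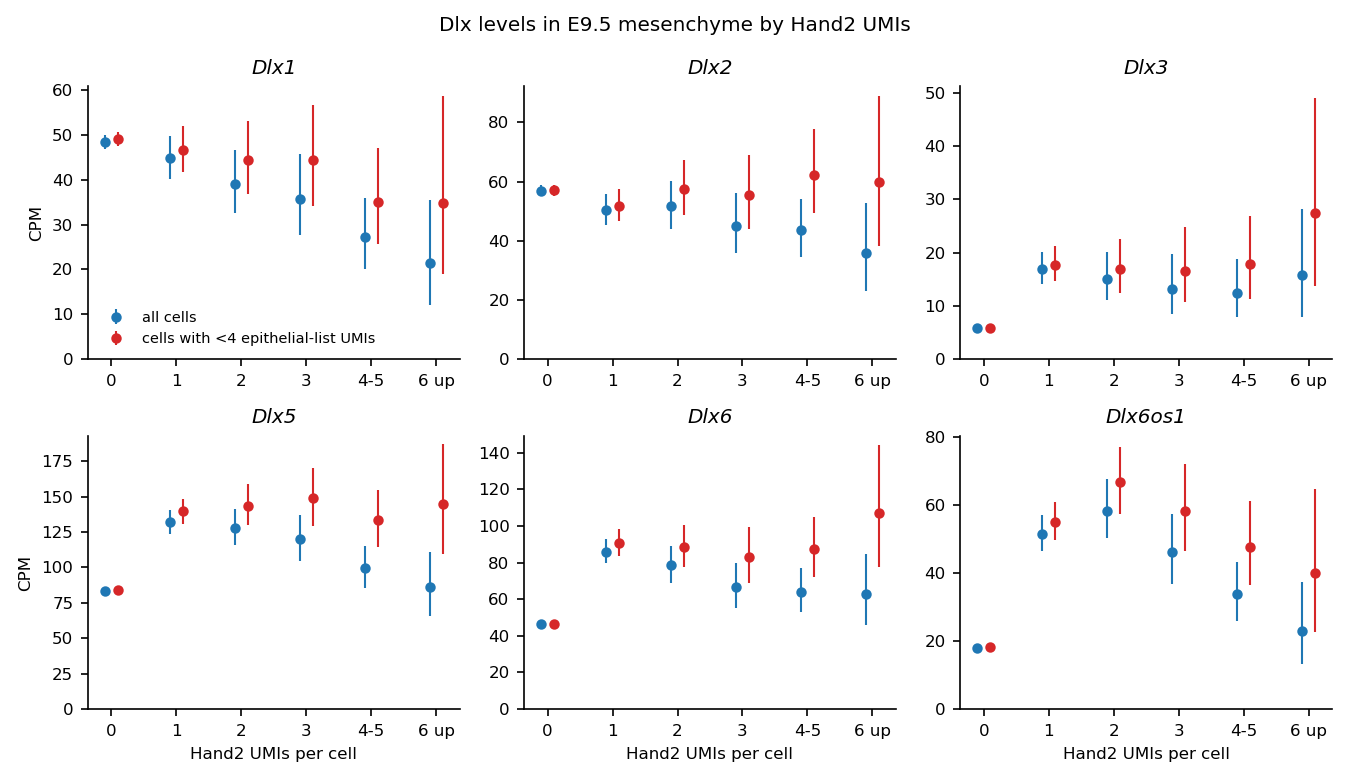
CPM of 5 Dlx genes and Dlx6os1 in E9.5 mesenchyme by the number of Hand2 UMIs per cell, with 95% counting intervals, over all cells (blue) and over cells with fewer than 4 epithelial-list UMIs (red). The blue points of Dlx5 go from 132 CPM at 1 Hand2 UMI back to 86.0 CPM at 6 or more, while the red points stay between 133 and 149 CPM.

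Noncoding genes at the loci were read in the same way. Dlx6os1 (Evf2), a long noncoding RNA that runs antisense through Dlx6 (chromosome 6, 6820189 to 6871592, minus strand), was at 46.0 CPM in Hand2-high and 17.9 CPM in Hand2-zero cells, a log2 ratio of 1.36 (1.18 to 1.53), and passed the size rule. Without the cells of at least 4 epithelial-list UMIs it was at 58.5 against 18.1 CPM, a log2 ratio of 1.69. Dlx4os was at 2.14 against 0.368 CPM. Dlx1as had fewer than 1 CPM in both groups. Dlx6os1, Dlx4os and Dlx1as overlap Dlx6, Dlx4 and Dlx1 on the opposite strand. How strand was used in counting is not given in the sources used here. UMIs of a gene and its antisense partner may therefore not be fully separable.

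The other genes of the arch patterning pathway were taken from 4 lists. Among lower jaw factors, 5 of 12 reached 10 CPM and all 5 rose in Hand2-high cells (median log2 ratio 1.26 with 5 CPM added, where the median over all genes tested was 0.03). These were Hand1 (30.1 against 0.877 CPM), Gata3 (12.7 against 2.46 CPM), Msx2 (116 against 33.4 CPM), Msx1 (141 against 56.2 CPM) and Barx1 (54.6 against 32.7 CPM), of which Msx1 and Msx2 are BMP-responsive factors of the distal midline and Barx1 marks the molar field. Of the endothelin pathway, 7 of 8 genes reached 10 CPM, and the median was 0.09: the ligand Edn1 was higher (12.4 against 6.25 CPM) and Mef2c, a factor downstream of the receptor, was lower (97.2 against 193 CPM). Of the 8 upper jaw or proximal genes, 5 reached 10 CPM, with Irx5 higher (23.0 against 11.9 CPM), Nr2f1 lower (156 against 278 CPM) and a median of 0.26. Of the 8 FGF-responsive or oral-side genes, 4 reached 10 CPM, with Dusp6, an inhibitor of ERK signalling, lower (28.9 against 47.2 CPM) and a median of -0.41.

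Of these 10 calls, 6 held without the cells with epithelial-list UMIs. Without those cells Msx2 was at 125 against 33.6 CPM, Msx1 at 153 against 56.5 CPM, Barx1 at 67.6 against 32.9 CPM, Gata3 at 12.3 against 2.38 CPM, Mef2c at 94.4 against 193 CPM and Dusp6 at 27.5 against 47.4 CPM, all still past the size rule. Edn1 (4.95 against 6.14 CPM), Hand1 (2.73 against 0.508 CPM), Irx5 (13.7 against 11.6 CPM) and Nr2f1 (191 against 279 CPM) no longer passed it. Ednra, the endothelin receptor on which Dlx5 and Dlx6 depend, was at 10.6 against 16.7 CPM in this comparison.

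A remainder of Sox10-positive cells, the neural crest gate, showed the pairs apart. The gate took cells with at least 2 Sox10 UMIs that met neither the mesenchyme nor the epithelium gate. Sox10-positive cells that met the mesenchyme gate were counted as mesenchyme. The core and endothelial gates were applied to the same remainder. Their mesenchyme check list summed to 159 CPM against 167 CPM in gated mesenchyme, and the list of Twist1, Prrx1, Pdgfra, Col3a1 and Dcn to 892 CPM. In these 122 cells Dlx1 was at 48.6 CPM (40.2 to 58.2) and Dlx2 at 58.1 CPM (48.9 to 68.6), within counting error of mesenchyme. Dlx5 was at 30.7 CPM (24.1 to 38.6), a log2 ratio of -1.56 (-1.91 to -1.23) to mesenchyme, and Dlx6 at 14.9 CPM (10.5 to 20.7), a log2 ratio of -1.79 (-2.31 to -1.32). Dlx6os1 was at 4.98 against 23.3 CPM. Dlx3 had 10 UMIs (4.15 CPM, 1.99 to 7.64). In this class the first pair was thus at its mesenchymal level while Dlx5, Dlx6 and Dlx6os1 were lower, beyond counting error. Doublets were called for 20.5% of these cells, the epithelial list summed to 220 CPM, and their part in these values was not tested. The mesoderm core, gated on Tcf21, Msc and Myf5 (403 cells), had 4.35, 3.97, 2.08, 6.24 and 4.35 CPM of Dlx1, Dlx2, Dlx3, Dlx5 and Dlx6.

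Ordered over the E9.5 classes, Dlx1 and Dlx2 shared neural crest, Hand2-zero cells and cells with 1 Hand2 UMI (48.6, 48.3 and 44.7 CPM of Dlx1, 58.1, 57.0 and 50.3 CPM of Dlx2), whose neighbours in that order had overlapping intervals. Hand2-high cells stood below these for Dlx1 (33.7 CPM, 29.7 to 38.2), while for Dlx2 (46.6 CPM, 41.8 to 51.7) they overlapped the cells with 1 Hand2 UMI (45.4 to 55.6). Without the cells with at least 4 epithelial-list UMIs, Dlx1 was at 46.6 CPM (41.6 to 52.0) in cells with 1 Hand2 UMI. Every higher step of Hand2 then overlapped that interval, from 44.3 CPM at 2 UMIs to 34.9 CPM at 6 or more. Dlx5 had separate steps instead: 132 CPM (124 to 140) in cells with 1 Hand2 UMI, 115 CPM (108 to 123) in Hand2-high and 83.6 CPM (81.5 to 85.7) in Hand2-zero cells, then neural crest and ectoderm. Dlx6 followed that order with 86.1, 70.7, 46.3 and 14.9 CPM down to neural crest. The step between the first 2 groups rests on the cells with at least 4 epithelial-list UMIs: without them Dlx5 was at 139 CPM in cells with 1 Hand2 UMI and 143 CPM in Hand2-high cells, and Dlx6 at 90.9 and 88.2 CPM. For Dlx3 the order was cells with 1 Hand2 UMI (16.9 CPM, 14.1 to 20.1), Hand2-high cells, ectoderm and Hand2-zero cells, and the first 2 of these overlapped.

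In the E9.5 epithelium 4 members were far lower than in mesenchyme and Dlx3 was level. Dlx1 was at 1.86 against 46.7 CPM (log2 ratio -4.65), Dlx2 at 3.79 against 55.5 CPM (-3.87), Dlx6 at 5.94 against 51.9 CPM (-3.13) and Dlx5 at 14.4 against 90.6 CPM (-2.65). Those 4 were called lower and none higher, where 14.3% of 8301 genes were called higher and 5.32% lower. Dlx3 was at 7.66 CPM (6.81 to 8.59) in epithelium and 7.56 CPM (6.99 to 8.17) in mesenchyme, a log2 ratio of 0.02 (-0.18 to 0.22).

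How much of the epithelial signal could be RNA released from mesenchymal cells was measured against endothelial cells and against the mesenchyme list. In ectoderm (2381 epithelial cells without endoderm markers, median 12369 UMIs) Dlx1 was at 1.88 CPM (1.43 to 2.44), Dlx2 at 3.93 CPM (3.26 to 4.70) and Dlx6 at 6.47 CPM (5.60 to 7.45), none above the endothelial 3.46, 4.03 and 7.20 CPM. Dlx1 had a UMI in 2.35% of ectodermal and 3.78% of endothelial cells, but in 0.863% and 0.431% when thinned. Dlx2 had a UMI in 4.79% of ectodermal and 5.46% of endothelial cells, but in 2.20% and 0.862% when thinned. The ectodermal values of Dlx1 and Dlx2 are therefore not read either way. For Dlx6 the measures differed: a UMI was found in 7.69% of ectodermal and 4.62% of endothelial cells (2.63% and 1.29% when thinned), and doublets were called for 0.672% and 3.78%, so its ectodermal value is not read either way. Dlx5 at 16.4 CPM (14.9 to 17.9) was above the endothelial 8.35 CPM (5.59 to 12.0). Dlx3 at 8.49 CPM (7.48 to 9.59) was above the endothelial 0.576 CPM (0.0698 to 2.08). Per 100 UMIs of the mesenchyme list, ectoderm had 47.9 UMIs of Dlx3 where mesenchyme had 4.52 and endothelial cells 2.50. For Dlx5 the same ratio was 92.4 in ectoderm, 54.1 in mesenchyme and 36.2 in endothelial cells. For Dlx1 it was 10.6, 27.9 and 15, and for Dlx2 22.2, 33.1 and 17.5, both lower in ectoderm than in mesenchyme. For Dlx6 it was 36.6 (30.9 to 43.1), 31.0 and 31.2 (19.1 to 49.5). The endothelial ratios rest on 80 UMIs of the list. The ectodermal ratio of Dlx3 stood over both others by the widest margin, and that of Dlx5 by a smaller one.

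Within ectoderm the Dlx5 signal was uneven. It was at 27.6 CPM (21.8 to 34.5) in the 236 cells with Bmp4 and no Fgf8 UMI, the medial ectoderm, and at 12.7 CPM (11.0 to 14.7) in the 988 cells with Fgf8 and no Bmp4 UMI, the lateral ectoderm. Dlx3 was at 12.2 CPM (8.44 to 17.0) against 6.55 CPM (5.30 to 8.002), also higher in the Bmp4 cells beyond counting error. Dlx6 at 8.96 (5.80 to 13.2) against 5.44 CPM (4.31 to 6.78) had overlapping intervals. The second-arch genes Hoxa2 and Hoxb2 summed to 7.17 CPM (4.38 to 11.1) in the Bmp4 cells and 0.207 CPM (0.0426 to 0.604) in the Fgf8 cells. These 2 groups thus differ in more than medial and lateral position, and the part of second-arch cells in the Dlx values was not tested. By Tfap2b, which marks aboral ectoderm, Dlx5 was at 25.4 CPM (19.9 to 32.0) in the 205 cells with a UMI and 15.4 CPM (14.0 to 17.0) in those without, while Dlx3 was at 8.81 and 8.46 CPM. Endoderm (346 cells) had 3.93 CPM (2.37 to 6.14) of Dlx5 and 4.55 CPM (2.85 to 6.89) of Dlx3.

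At E12.0 the epithelium was a different picture, with most of the Dlx UMIs from Dlx1, Dlx2 and Dlx3. Over the library Dlx1 was at 76.3 CPM (74.4 to 78.3), Dlx2 at 131 CPM (128 to 133) and Dlx3 at 103 CPM (101 to 105), and a UMI was found in 31.9%, 47.8% and 44.3% of cells. Dlx4 had 478 UMIs (6.13 CPM, 5.60 to 6.71) and Dlx5 466 UMIs (5.98 CPM, 5.45 to 6.55). Dlx6 had 4 UMIs in 77936364, and Dlx6os1 also 4. Clusters built without the Dlx genes were named from zone markers: anterior-like (3758 cells), dental-like (1521 cells), posterior-like (2216 cells) and P/S-like, for periderm and suprabasal cells (461 cells). Clusters 6 and 9 entered the posterior-like zone through salivary gland markers, of which 4 and 6 of 6 were raised. Of the posterior-like list itself, 2 and 1 of 6 were raised in them. Another 3399 cells in clusters 1, 3, 12 and 14 did not meet the naming rule.

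The anterior-like zone, on the aboral side, had the most Dlx3 and Dlx4 among the named zones. Dlx3 was at 148 CPM (143 to 153) there and 80.8 CPM in other cells (log2 ratio 0.87), and Dlx4 at 11.4 CPM (10.2 to 12.8) and 3.51 CPM (log2 ratio 1.70). Both were called higher, 2 of 6 genes, where 2.87% of genes were called higher and 3.86% lower. Dlx2 was at 155 against 119 CPM (log2 ratio 0.39) and Dlx1 at 79.5 against 74.7 CPM (0.09), under the size rule. The other cells include unnamed cluster 3, which had 233 CPM of Dlx2, 206 CPM of Dlx1, 170 CPM of Dlx3 and 10.4 CPM (8.28 to 13.0) of Dlx4. The Dlx4 call was lost under 2 alternatives and the Dlx3 call under 1. Dlx2 and Dlx1 were each called higher under 2 alternatives and not under 11. The log2 ratios with 5 CPM added were then 0.68 and 0.82 for Dlx2, and 0.59 and 0.71 for Dlx1. Dlx5 was at 4.26 against 6.83 CPM. A list of genes known from mesenchyme (Twist1, Prrx1, Pdgfra, Col3a1 and Dcn, all 5 detected) was also highest in this zone, at 62.9 CPM against 6.50 to 12.5 CPM in the other named zones. Dcn is itself a leading gene of anterior-like cluster 4, where the list summed to 132 CPM, so the sum is not shown to be mesenchymal RNA, and its part in these values was not tested.

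The dental-like zone, the tooth-forming strip, had less Dlx3 and more Dlx5 than the other cells. Dlx3 fell to 58.6 CPM (54.1 to 63.2) against 110 CPM in other cells (log2 ratio -0.91), and Dlx5 rose to 11.1 CPM (9.22 to 13.2) against 5.13 CPM (log2 ratio 1.11). That is 1 gene called each way, where 2.79% of genes were called higher and 4.26% lower. Dlx1 at 69.5 against 77.4 CPM and Dlx2 at 125 against 132 CPM were close to the rest of the epithelium. The Dlx5 call was lost under 4 of 13 alternatives: its log2 ratio with 5 CPM added, 0.67, became 0.57 with each cell weighted equally, 0.51 with LogNormalize without regression and 0.63 with cells gated by zone-marker UMIs, and it missed a fold of 2. Of the 123 Dlx5 UMIs in this zone, 55 came from the 302 cells of cluster 13, while the other dental-like clusters lay between 7.69 and 8.34 CPM, against 10.2 and 8.37 CPM in the unnamed clusters 3 and 1.

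The posterior-like zone had the least of every well-detected member among the named zones. It joins posterior-medial-like cluster 2 (1187 cells) with salivary gland-like clusters 6 and 9 (575 and 454 cells). Dlx1 was at 11.6 CPM (10.0 to 13.4) against 93.03 CPM elsewhere (log2 ratio -3.001), Dlx2 at 31.2 CPM (28.6 to 34.1) against 156 CPM (-2.32) and Dlx3 at 43.0 CPM (39.9 to 46.4) against 119 CPM (-1.46). These 3 were called lower, where 3.74% of genes were called higher and 3.42% lower. Dlx4 (1.69 against 7.28 CPM) and Dlx5 (1.31 against 7.19 CPM) pointed the same way without reaching 10 CPM. Cluster 14, with the tongue markers Foxa1 and Foxa2 among its leading genes, was unnamed and lies outside the zone. It had 15.7, 46.7 and 41.1 CPM of Dlx1, Dlx2 and Dlx3. In the P/S-like zone no member was called (7.72% of genes were called higher and 4.78% lower), with Dlx1 at 87.7 CPM (77.6 to 98.7), Dlx2 at 134 CPM (121 to 147) and Dlx3 at 85.5 CPM (75.5 to 96.3). Dlx5 at 10.8 CPM (7.51 to 15.2) in P/S-like cells overlapped its dental-like level. Dlx5 was called higher there under 5 alternatives (log2 ratios with 5 CPM added of 0.56 to 0.74) and not under 8. Raised Dlx5 is therefore not particular to the dental-like zone. Dlx1, Dlx2 and Dlx3 were each called lower in P/S-like cells under 1 alternative (-0.93, -0.99 and -0.85).

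**Figure D4:**
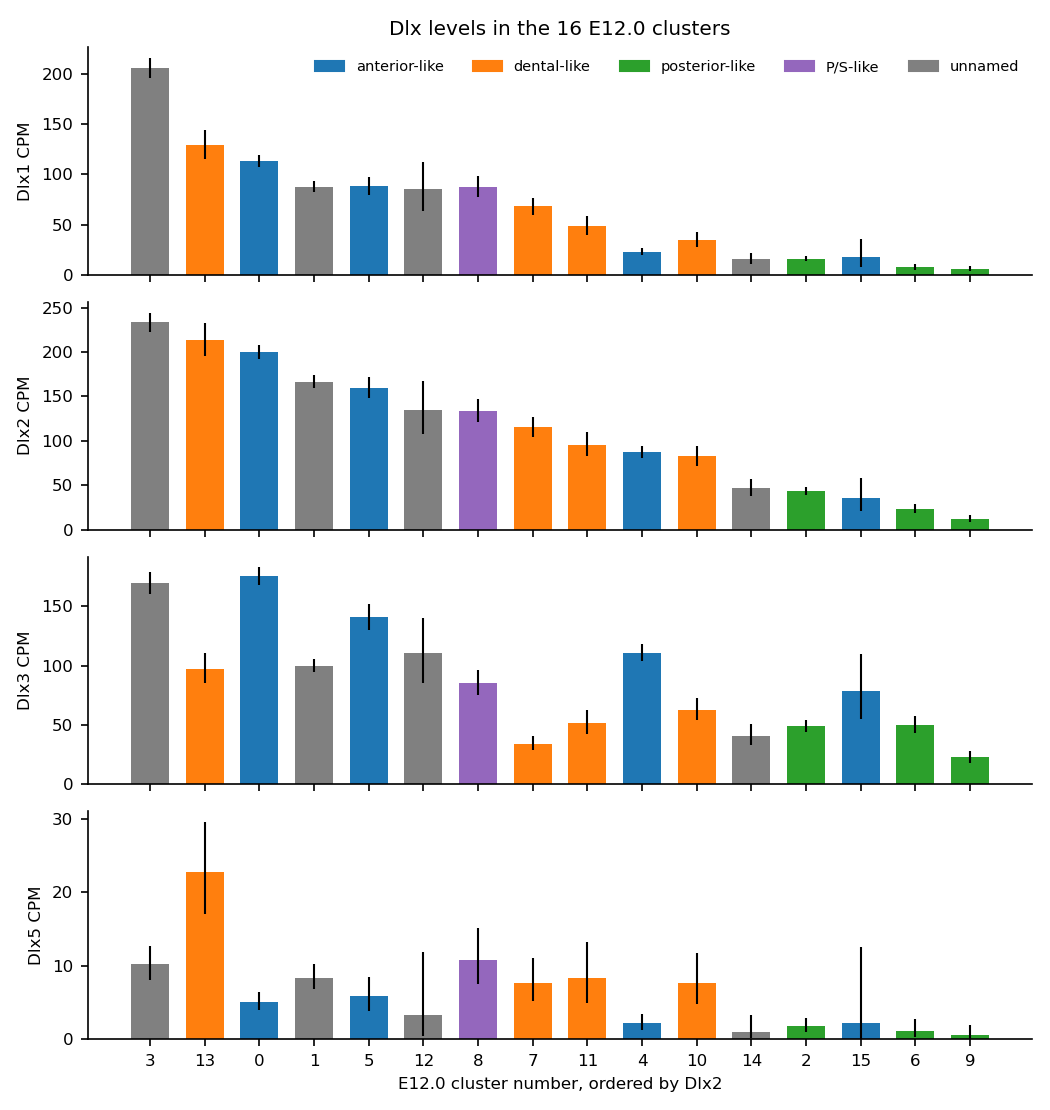
CPM of Dlx1, Dlx2, Dlx3 and Dlx5 in the 16 clusters of the E12.0 epithelium, ordered by Dlx2 and coloured by zone (grey: unnamed), with 95% counting intervals. Posterior-like clusters 9, 6 and 2 are among the lowest for Dlx2, cluster 3 has the highest Dlx1 at 206 CPM, and cluster 13 the highest Dlx5 at 22.7 CPM.

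Single clusters sharpened this. Dlx1 ran from 6.03 CPM (cluster 9, posterior-like by its salivary gland markers) to 206 CPM (cluster 3), Dlx2 from 12.3 to 233 CPM in the same clusters, and Dlx3 from 22.8 CPM (cluster 9) to 176 CPM (cluster 0, anterior-like). Cluster 3, unnamed by the rule and led by Pthlh, Crabp1, Syt1, Creb5 and Runx1, thus had the most Dlx1 and Dlx2 (206 against 62.2 CPM and 233 against 120 CPM in all other cells) and 170 CPM of Dlx3. Its leading genes also include Slc4a4, a marker that the paper maps to the anterior epithelium. Of the 7 anterior-like zone markers, 0 were raised in it. Cluster 13, which was led by Shh, Tgfb2 and Bmp2 and meets the markers of the initiation knot, the early signalling centre of the tooth, had the most Dlx5 (22.7 CPM, 17.1 to 29.6). It also had 214 CPM of Dlx2, 129 CPM of Dlx1 and 97.5 CPM of Dlx3, all above the dental-like average, and 2 of the 4 Dlx6 UMIs. Another dental-like cluster, number 7, had only 34.2 CPM of Dlx3, while its 68.1 CPM of Dlx1 was near the 69.5 CPM of the whole dental-like zone. In anterior-like cluster 4, led by the connexins Gjb6 and Gjb2, Dlx1 was at 22.7 CPM against 76.3 CPM over the library, Dlx2 at 87.0 against 131 CPM and Dlx3 at 111 against 103 CPM. Over the 16 clusters of this library Pearson's r of CPM was 0.97 for Dlx1 with Dlx2, 0.77 for Dlx2 with Dlx3 and 0.73 for Dlx1 with Dlx3, as a description of 1 library.

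Set beside E9.5 ectoderm, the E12.0 epithelium had a different set of Dlx genes. Dlx1 was 40.5-fold higher (76.3 against 1.88 CPM), Dlx2 33.3-fold higher (131 against 3.93 CPM) and Dlx3 12.1-fold higher (103 against 8.49 CPM). Dlx5 was 2.73-fold lower (5.98 against 16.4 CPM). These are 3 genes called higher and 1 lower, where 28.5% of 9107 genes were called higher and 13.6% lower, and where the median of all genes tested lay at a log2 ratio of 0.18. Dlx4 (6.13 against 0.264 CPM) and Dlx6 (0.0513 against 6.47 CPM) did not reach 10 CPM. The E9.5 values of Dlx1 and Dlx2 were not read either way. Their folds are therefore against levels not shown to come from ectoderm. Stage, sorting and the version of the counting software differ together between the libraries and cannot be told apart. The list of Twist1, Prrx1, Pdgfra, Col3a1 and Dcn summed to 35.8 CPM in E9.5 ectoderm and 28.3 CPM at E12.0.

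Within the pairs, the balance of neighbours differed between groups of cells. Dlx2 had 1.19 UMIs per Dlx1 UMI (1.14 to 1.24) in E9.5 mesenchyme, 2.09 (1.51 to 2.92) in E9.5 ectoderm, 1.71 (1.66 to 1.77) over the E12.0 epithelium and 2.69 (2.27 to 3.20) in its posterior-like zone. Dlx5 had 1.75 UMIs per Dlx6 UMI (1.68 to 1.81) in mesenchyme, 2.53 (2.14 to 2.995) in E9.5 ectoderm and 116.5 (45.2 to 429) at E12.0. At E12.0 the UMIs of Dlx5 thus came almost without UMIs of Dlx6. Between the libraries, stage, sorting and the version of the counting software differ together. Their parts in this ratio cannot be told apart. Dlx3 had 14.7 UMIs per Dlx4 UMI (10.8 to 20.5) in mesenchyme and 16.8 (15.3 to 18.5) at E12.0, with overlapping intervals. The E9.5 ectodermal levels of Dlx1, Dlx2 and Dlx6 were not read either way. The ectodermal ratios of Dlx2 to Dlx1 and of Dlx5 to Dlx6 are therefore not read as a balance within ectoderm.

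Joint detection asked whether cells with a given member are also the cells with another. The measure is the share of cells with a UMI of both genes over the product of the single shares, in cells thinned to 4100 UMIs, so that 1 is the value for independent detection. In E9.5 mesenchyme (5310 cells) Dlx5 and Dlx6 had a ratio of 1.80 (1.64 to 1.98): 424 cells had both, and 46.7% of the cells with Dlx6 also had Dlx5. Dlx1 and Dlx2 had a ratio of 1.204 (1.05 to 1.38), with 203 joint cells. Dlx3 and Dlx4 had no joint cell, with 158 and 12 cells for the single genes, so nothing can be read from them. Unlinked genes were also found together: Dlx3 had ratios of 1.92 (1.44 to 2.52) with Dlx6 and 1.76 (1.38 to 2.21) with Dlx5, as high as that of the neighbours Dlx5 and Dlx6. Of 15 pairs, 8 had an interval above 1 and none below. Thinning to 10000 UMIs gave 1.62 (1.54 to 1.70) for Dlx5 and Dlx6 and 1.14 (1.07 to 1.21) for Dlx1 and Dlx2.

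**Figure D5:**
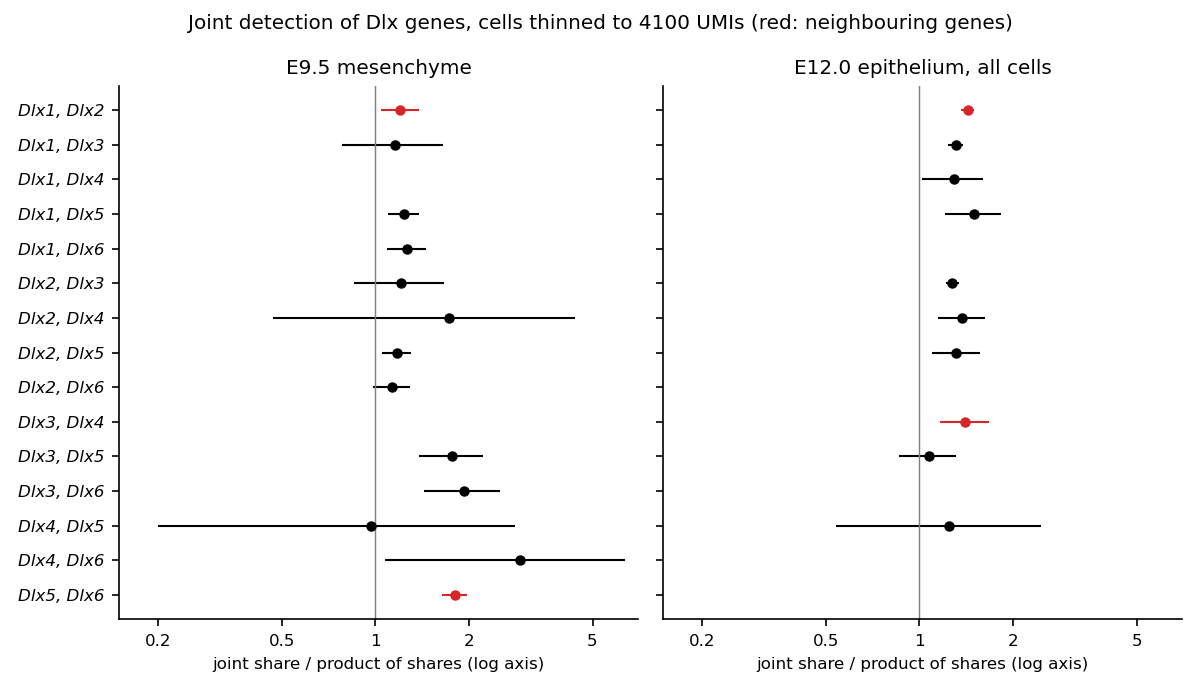
Ratio of joint detection to the product of single shares (log axis) for the 15 pairs of Dlx genes in E9.5 mesenchyme (left) and E12.0 epithelium (right), cells thinned to 4100 UMIs, with 95% counting intervals; red marks neighbouring genes, and pairs with fewer than 3 joint cells are left out. Dlx5 with Dlx6 and Dlx3 with either of them stand between 1.76 and 1.92 at E9.5, and Dlx1 with Dlx2 stands at 1.43 at E12.0.

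In the E12.0 epithelium (10331 cells) the pair of Dlx1 and Dlx2 was at 1.43 (1.36 to 1.505), with 1314 joint cells, and Dlx3 and Dlx4 at 1.40 (1.16 to 1.68), with 119. Dlx1 with Dlx5 (1.496) and Dlx2 with Dlx4 (1.37) were as high, and again 8 of 15 pairs lay above 1. Within the zones fewer pairs had an interval above 1, from 1 in P/S-like cells to 4 in dental-like and in posterior-like cells. The zones held from 405 (P/S-like) to 3506 (anterior-like) cells at this depth, and intervals widen with fewer cells. These counts are therefore not read as weaker joint detection within zones. In the anterior-like cells, 3 pairs lay above 1 (Dlx1 with Dlx2 at 1.22, 1.12 to 1.32, and each of them with Dlx3), and Dlx3 with Dlx4 was at 0.981 (0.774 to 1.23). Among Hand2-high mesenchyme without the cells of at least 4 epithelial-list UMIs (334 cells), no pair had an interval above 1, where 3 did with those cells kept (455 cells).

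Counting members per cell gave the same contrast in another form. At 4100 UMIs, 54.7% of mesenchymal cells had a UMI of at least 1 Dlx gene and 21.1% of at least 2, compared with 5.17% and 0.431% of endothelial cells. At 10000 UMIs the mesenchymal shares were 78.3% and 51.7%. At E12.0 and 4100 UMIs, at least 1 member was seen in 74.9% of anterior-like, 60.7% of P/S-like, 56.2% of dental-like and 25.5% of posterior-like cells.

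Genes whose levels ran most like each member were ranked by Pearson's r of log2(CPM + 5) over 11 classes and zones of the 2 libraries, among 5204 genes that reached 50 CPM. For Dlx6 the first was Sem1 (r = 0.96), which is also the nearest protein-coding gene on its left, 284670 bp away, and encodes a small proteasome subunit: it was at 645 CPM in Hand2-high and 541 CPM in Hand2-zero mesenchyme, 459 CPM in ectoderm and 371 CPM in the anterior-like zone. For Dlx4 the list held Gjb6, a connexin, with r = 0.93. For Dlx1 and Dlx2 the leading genes were Csnk1d (r = 0.92) and Elovl6 (r = 0.94), for Dlx3 4933427D14Rik (r = 0.97) and for Dlx5 Gsto1 (r = 0.91). The 11 points come from only 2 libraries and share their depth, so the values are a description.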

How the data were processed

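Both libraries were made with 10x Genomics 3′ V3 chemistry. The deposited matrices hold whole-number UMI counts per gene and barcode, which the authors made with Cell Ranger against GRCm38 (mm10): the submitters' processing notes give version 2.0.0, while the file headers give 3.1.0 at E12.0 and 6.1.2 at E9.5. Raw barcodes numbered 11663 and 14293; these and the kept cells differ from the cell totals the study states. The members and gene lists were chosen with earlier results of these data known.

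Barcodes with fewer than 200 or more than 5500 genes or above 10% mitochondrial UMIs were removed (294 for mitochondrial UMIs and 14 for genes at E12.0, 418 and 1129 at E9.5). E9.5 cells were gated on marker UMIs. E12.0 cells were clustered in Seurat 5.3.0 (sctransform 0.4.2, R 4.3.3) with 3000 variable features less 28 reported genes, 30 components and resolution 0.9. A cluster was named for the marker list with the largest share of raised genes, with at least 3 raised. Lists for initiation knot, salivary gland, tongue and posterior-medial cells were used beside the zone lists and counted for their parent zone. Clusters of low depth or with a tie between zones stayed unnamed. Doublets were called with scanpy 1.11.5 (5.82% at E12.0, 2.60% at E9.5) and kept. Counts were summed per group in Python 3.11.15 (numpy 2.4.6, scipy 1.17.1), with exact Poisson intervals for CPM, exact conditional intervals for ratios and Clopper-Pearson intervals for shares. Shares were compared after thinning each cell to 4100 UMIs, which left out 1024 shallower cells at E12.0 and 1759 at E9.5. A level of 0 allows up to 3 UMIs.

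The genes named are the 6 Dlx genes, their antisense and flanking genes, 4 arch patterning lists, surface ectoderm genes and, for each member, the genes most alike by Pearson's r. Genes that lead a cluster or a set of cells were named after their values were seen. Another list is not reported here. The scripts were tested on simulated counts. Alternatives changed the barcode filter, doublets, weighting, depth, gates, clustering and size rule. No column of the files was left out.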

Additional observations from a re-analysis of the deposited data

How the results depend on the processing

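With 1 library per stage, precision is set by UMIs alone, and embryo-to-embryo spread is unknown. No paired analysis was possible because each stage is 1 pooled library. The number of Dlx genes called in Hand2-high against Hand2-zero mesenchyme (1) became 4 at a fold of 1.3 (Dlx3, Dlx5 and Dlx6 higher, Dlx1 lower), 0 at a fold of 2, 2 with Hand2-high set at 1 UMI (Dlx3 and Dlx6 higher), 2 at 4 UMIs (Dlx3 higher, Dlx1 lower), and, in alternatives chosen after seeing the data, 3 without cells with at least 4 epithelial-list UMIs and 3 without cells with a Hand1 UMI. For the alternatives in this paragraph, the share over all genes was computed only without the epithelial-list cells (1.53% higher and 1.16% lower). The other counts of genes called have no such share beside them and are not read as results about the members. The count of arch patterning genes called (10) became 4 at a fold of 2, 5 with Hand2 at 1 UMI and 6 without the epithelial-list cells. The calls over the E12.0 zones (7) became 3 at a fold of 2. Pairs with joint detection above 1 in mesenchyme (8) became 13 without thinning, 5 at 3100 UMIs and 3 in Hand2-high cells, and those at E12.0 (8) became 3 in anterior-like cells, where Dlx3 with Dlx4 turned to 0.981. The number of pairs with an interval above 1 thus changed with depth and with the cells taken. Since intervals widen with fewer cells, these counts are not read as changes in joint detection itself. The cause of these changes was not tested. The other 60 of 74 summary counts stayed within 1.5-fold. Of 711 values of single genes and pairs, 667 kept their side of the rule, 22 passed it only under the alternative and 21 no longer did. For values not called in the main setting, direction was not part of this count. For example, the log2 ratio of Dlx2 in Hand2-high against Hand2-zero cells, with 5 CPM added, ran from -0.42 to 0.03.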

Other observations

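The surface ectoderm list, chosen as a background for the epithelial Dlx genes, differed between the zones. At E12.0 all 8 of its genes were higher than in E9.5 ectoderm (28.5% of 9107 genes were), led by Krt5 (500.4 against 0.496 CPM), a basal keratin, and Tfap2b (422 against 9.61 CPM). Within E12.0, 5 of 8 were higher in anterior-like cells, where 2.87% of all genes were: Krt5, Tfap2a, Tfap2b, Tfap2c and Wnt6 (404 against 196 CPM). Tfap2b (988 against 142 CPM) is among the markers that named that zone. Its rise there is thus tied to the naming and is not read as a result. In posterior-like cells 5 of 8 were lower, where 3.42% of all genes were (Krt5 124 against 598 CPM). In dental-like cells none was higher and 6 of 8 were lower (4.26% of all genes), with a median log2 ratio of -1.01 against -1.06 in posterior-like cells. The FGF-responsive list was arranged the other way: the 6 genes of 8 that reached 10 CPM were all higher in posterior-like cells (3.74% of all genes). Among them were Etv4 (54.1 against 7.14 CPM) and Pax9 (52.2 against 2.83 CPM). Etv5 (98.4 against 19.3 CPM) is among the salivary gland markers used in naming. Its rise in posterior-like cells is thus tied to the naming and is not read as a result. Pax9, Etv4, Etv5, Dusp6, Spry1 and Spry2 were lower in anterior-like cells (3.86% of all genes). Trp63, the master regulator of stratified epithelia, differed less, at 204 against 266 CPM in posterior-like cells.

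At E9.5, 3182 cells met none of the gates. They were shallower (median 7968 UMIs), their red blood cell genes summed to 7662 CPM, and they held 62.9 CPM of Dlx5, 34.4 CPM of Dlx6 and 27.3 CPM of Dlx1, between the mesenchymal and the ectodermal levels. At E12.0, cluster 12 had a median of 1160 UMIs, and its 85.7 CPM of Dlx1 and 14.8 CPM of Dlx4 rest on 52 and 9 UMIs.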
